A study of Mus musculus with 4 samples.

Results

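The 926 regions described here are single, very broad peaks of histone H3 lysine 4 trimethylation (H3K4me3) that lie at the starts of protein-coding transcripts in mouse cerebral cortex. They were chosen by their measured width: each is a peak of the replicated list, at least 4000 bases wide, that overlaps a window of 1000 bases either side of an annotated protein-coding transcript start, with no merging of neighbouring peaks. They made up 6.01% of the 15403 promoter peaks of that list and 3.64% of all its 25446 peaks, and they held 15.7% of the bases under promoter peaks. A peak call is a stretch where immunoprecipitated DNA exceeded the level the caller expected, so width here is a property of the list and not of a single cell.

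The tissue was left cerebral cortex, taken from female mice 2 months of age. The strain was B6CASTF1/J, a first-generation cross of the C57BL/6J and CAST/EiJ strains, and the labels name no treatment or genetic change. Chromatin immunoprecipitation and sequencing (ChIP-seq) was done on 2 pools of 4 cortex biosamples each, pool J and pool I, with 2 technical replicate libraries per pool. All 4 libraries carried 1 donor record, whether separate animals were pooled is not stated in the labels, and each pool gave 1 peak list, so there is no spread within a pool and no test between pools. Whole tissue was used, so a mark carried by fewer cells and a weaker mark in all cells cannot be told apart, and the peaks are given on the mm10 build, which represents C57BL/6J alone. No source used here gives read numbers, and the depth behind each list is unknown.

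H3K4me3 is laid down around the start of most active genes by SET1 and MLL family methyltransferases, which are drawn to unmethylated CpG-rich DNA and to the transcription machinery. At most promoters it forms a short domain over the first nucleosomes of the gene. Unusually long domains have been described in many tissues over genes that define the cell type, among them lineage transcription factors, and in brain over neuronal genes.

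The DNA under these peaks varied in CpG content between genes and, at Lmo4, along the length of the peak. A pair of genes shows the range. Lmo4, a LIM-domain transcription cofactor of cortical neurons, had one of the widest peaks that touched a single coding gene (11415 bases, chr3:144194993-144206407), with 5 CpG islands. Arhgap32, a GTPase-activating protein found at synapses, had the lowest observed-to-expected CpG ratio of the 926 (0.167 over 6331 bases, chr9:32223245-32229575) and no island. Windows of 150 bases outside annotated exons are given on the gene's strand from the mm10 sequence, with every CG in capitals. Both genes have more than 1 coding start under the peak, and introns are counted in transcripts from the start nearest the summit. The Lmo4 window before that start therefore lies inside transcripts that begin at the 5′-most start.
Lmo4 window with the most CG, before the 5′-most start, chr3:144205223-144205372, minus strand: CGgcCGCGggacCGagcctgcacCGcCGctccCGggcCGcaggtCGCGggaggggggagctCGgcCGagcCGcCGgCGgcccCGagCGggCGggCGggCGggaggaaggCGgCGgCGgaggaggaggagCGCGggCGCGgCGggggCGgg
Lmo4 before the start nearest the summit, chr3:144202403-144202552, minus strand: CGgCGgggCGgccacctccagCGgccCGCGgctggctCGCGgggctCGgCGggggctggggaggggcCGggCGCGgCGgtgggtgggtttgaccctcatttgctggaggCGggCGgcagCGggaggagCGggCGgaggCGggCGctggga
Lmo4 middle of the downstream part, intron 1, chr3:144197022-144197171, minus strand: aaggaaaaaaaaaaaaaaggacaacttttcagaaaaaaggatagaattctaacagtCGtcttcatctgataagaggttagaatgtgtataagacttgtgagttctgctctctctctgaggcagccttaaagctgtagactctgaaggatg
Lmo4 downstream edge, intron 1, chr3:144194993-144195142, minus strand: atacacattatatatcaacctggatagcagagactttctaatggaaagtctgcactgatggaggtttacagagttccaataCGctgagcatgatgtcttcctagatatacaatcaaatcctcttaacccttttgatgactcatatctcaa
Arhgap32 window with the most CG, before the 5′-most start, chr9:32223245-32223394, plus strand: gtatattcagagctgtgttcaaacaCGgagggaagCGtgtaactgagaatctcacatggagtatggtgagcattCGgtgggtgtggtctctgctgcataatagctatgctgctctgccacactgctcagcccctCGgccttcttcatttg
Arhgap32 before the 5′-most start and nearer to it, chr9:32224092-32224241, plus strand: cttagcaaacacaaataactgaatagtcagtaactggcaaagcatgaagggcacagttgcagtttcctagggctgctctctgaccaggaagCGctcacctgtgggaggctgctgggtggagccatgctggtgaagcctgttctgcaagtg
Arhgap32 middle of the downstream part, intron 1, chr9:32227084-32227233, plus strand: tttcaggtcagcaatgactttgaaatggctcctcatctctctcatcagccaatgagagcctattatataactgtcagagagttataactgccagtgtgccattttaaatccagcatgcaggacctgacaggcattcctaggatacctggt
Arhgap32 downstream edge, intron 1, chr9:32229426-32229575, plus strand: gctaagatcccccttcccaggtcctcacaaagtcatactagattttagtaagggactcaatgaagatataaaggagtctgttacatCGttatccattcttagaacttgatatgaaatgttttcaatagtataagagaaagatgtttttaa
The richest Lmo4 window held 29 CG in 150 bases at a GC content of 87.3% and the window before the start nearest the summit 21 at 82.0%, while the windows in the middle of the downstream part and at its far edge held 1 CG each, at 36.7% and 37.3%. In Arhgap32 the richest window held 4 CG, and the middle of the downstream part held 0. Both peaks therefore covered intronic DNA with few or no CG, and in Lmo4 this lay in 1 unbroken peak with CpG islands.

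Widths ran from 4001 to 16583 bases, with a median of 4758 and quartiles of 4332 and 5584. At least 5000 bases were reached by 369 peaks, 8000 bases by 30 and 10000 bases by 11. The threshold cut through a continuous distribution, as the plot of promoter peak widths shows. Just inside it were Ptprt and Bzw2 (4001 bases each) and Paqr8 (4002), and just outside were peaks at Mbnl1 (3998), Cryzl1 (3992) and Sema6d (3989).

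**Figure D1:**
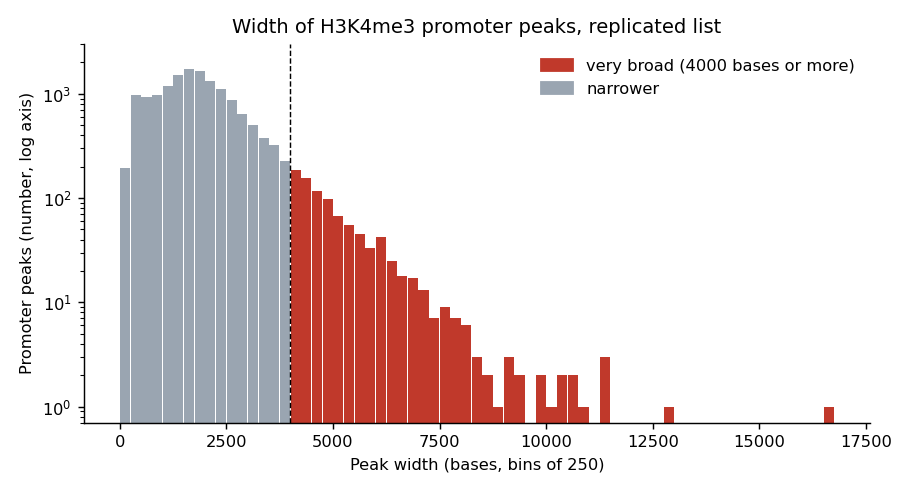
Width of the 15403 promoter peaks of the replicated list in bins of 250 bases, on a log count axis, with the 926 peaks of at least 4000 bases in red. Numbers fall steadily through the threshold (dashed line), and the widest reaches 16583 bases.

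Among the 10 widest peaks was that of Lmo4 (11415 bases). Next were the adhesion protein Pcdh10 (11398 bases) and Setd1b (11256 bases), itself a catalytic subunit of an H3 lysine 4 methyltransferase complex. The adhesion protein Pcdh9 (10964 bases), the transcriptional coregulator Mn1 (10715), the zinc-finger repressor Bcl11a (10702) and the adhesion protein Pcdh7 (10373) followed. Nr3c1, which encodes the glucocorticoid receptor, had a peak of 10293 bases.

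Of the 926 peaks, 827 touched windows of 1 protein-coding gene, 94 of 2 genes and 5 of 3 genes, so 1016 genes had such a peak. This was 7.20% of the 14103 protein-coding genes with any promoter peak, called marked genes below. That share is the level against which each class of genes is read. The classes overlap, were compiled with earlier results of these data in view, and were not tested. Of the 1016 genes, 34.8% were in any of the 46 classes, against 19.0% of all marked genes.

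Transcription factor families often had very broad peaks. Outside the numbered Zfp and Zbtb genes, 84 of 385 marked transcription factor genes (21.8%) had a very broad peak, of which 68 were at least 4000 bases wide in pool J and 80 in pool I. Among the nuclear factor I genes it was 3 of 4, with Nfix at 9154 bases, Nfib at 9016 and Nfia at 4924. Both single-pool widths of Nfia were under the threshold (J 3991, I 3902), so either list alone gave a count of 2. Sox factors counted 6 of 17 (35.3%), led by Sox5 at 7675 bases, Sox2 at 7200 and Sox11 at 6490. Basic helix-loop-helix factors counted 21 of 64 (32.8%), with Tcf4 at 8537 bases, Bhlhe40 at 8236 and Bhlhe22 at 6199. Klf and Sp factors counted 8 of 23 (34.8%), led by Klf13 (5517 bases), Klf9 (5374) and Klf6 (5347). Homeobox genes outside the Hox clusters, a class that includes the LIM-only Lmo genes, counted 15 of 88 (17.0%), but 9 of the 15 reached 4000 bases in pool J and all 15 in pool I. By contrast, the numbered Zfp and Zbtb genes counted 16 of 387 (4.13%), below the level over all marked genes. Zbtb18, a repressor needed for cortical neuron differentiation, was the widest of them at 8488 bases.

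Excitatory neuron markers and activity-regulated genes had the highest shares among classes with at least 8 marked genes. All 20 excitatory neuron markers were marked and 12 had a very broad peak (60.0%). Among the widest of these were Mef2c (8695 bases) and Tbr1 (7532 bases), transcription factors of projection neurons, and Bhlhe22 (6199 bases). Activity-regulated genes, which are switched on in neurons by calcium entry, counted 17 of 33 (51.5%). Their widest were the nuclear receptor Nr4a3 (7599 bases), the MAP kinase phosphatase Dusp6 (7315) and the synaptic scaffold Homer1 (7232). Axon guidance genes counted 29 of 79 (36.7%), led by Flrt2 (8482 bases), Epha4 (7053) and Efnb2 (6565). Synaptic genes counted 19 of 55 (34.5%), among them the vesicle calcium sensor Syt1 at 7858 bases and the synaptic adhesion proteins Lrrtm3 at 7604 and Lrrtm2 at 7197.

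Channels and receptors followed. Potassium channel genes counted 24 of 78 (30.8%), with Kcnv1 (7520 bases), Kcna3 (7093) and Kcna2 (6142). Glutamate receptor genes counted 8 of 26 (30.8%), with the AMPA receptor subunit Gria2 at 9494 bases, the NMDA receptor subunit Grin2a at 6805 and the kainate receptor subunit Grik2 at 6525. Sodium and calcium channel genes counted 7 of 32 (21.9%) and GABA receptor genes 3 of 16 (18.8%). The 7 were Cacna1a, Cacna1e, Cacna2d1, Cacna2d3, Cacng2, Cacng3 and Cacng8, with no sodium channel gene among them. Cadherins and nonclustered protocadherins counted 11 of 34 (32.4%), whereas the clustered protocadherins counted 2 of 35 (5.71%), with 1 of the 2 past 4000 bases in pool J. Neuronal cytoskeleton genes counted 21 of 78 (26.9%), led by Dclk1 (6965 bases), Nefm (6744) and Map1b (6004).

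Markers of other cell types gave small counts, although all but the inhibitory neuron markers had a share above the 7.20% over all marked genes. Astrocyte markers counted 4 of 13 (30.8%), namely Glul at 7726 bases, Sox2 at 7200, Slc1a2 at 6103 and Acsl3 at 4406. Inhibitory neuron markers counted 1 of 17 (5.88%; Lamp5, 4381 bases), although 17 of the 18 listed genes had a promoter peak. Lamp5 had 3271 bases in pool J, so this count was 0 there and 1 in pool I. Oligodendrocyte lineage markers counted 2 of 15 (13.3%), the RNA-binding protein Qk (9972 bases) and Sox8 (6486). Microglia markers counted 1 of 8 (12.5%; Sall1, 6109 bases), and vascular and mural markers 2 of 13 (15.4%; Foxc1, 7877 bases, and Slc2a1, 4743). Each pool alone gave 1 of these, since Foxc1 had 3645 bases in pool J and Slc2a1 3550 in pool I. How the mix of cells in the tissue bears on these shares was not tested.

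Very broad peaks were rare at ribosomal protein, oxidative phosphorylation, proteasome and histone genes, which most cells need. No ribosomal protein gene of 81 marked had a very broad peak, although the median widest peak of that class was 2075 bases, close to the 1976 bases over all marked genes. Oxidative phosphorylation genes counted 1 of 90 (Uqcrh), proteasome genes 1 of 47 (Psmb1) and histone genes 1 of 61 (Hist3h2a). A short list of housekeeping controls counted 3 of 17 (17.6%), Ywhaz (7564 bases), Tbp (4451) and Actb (4141). Psmb1 and Tbp start on opposite strands under the same 4451-base peak, which was 2022 bases wide in pool J and 2577 in pool I. By single-pool width the housekeeping count was therefore 2 in each pool and the proteasome count 0 in both, and the oxidative phosphorylation gene passed in pool I only. Chromatin regulators counted 23 of 163 (14.1%), led by Setd1b, Kmt2e (8218 bases) and Nsd1 (6791). Ubiquitin ligases and proteases counted 21 of 293 (7.17%), at the level over all marked genes.

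**Figure D2:**
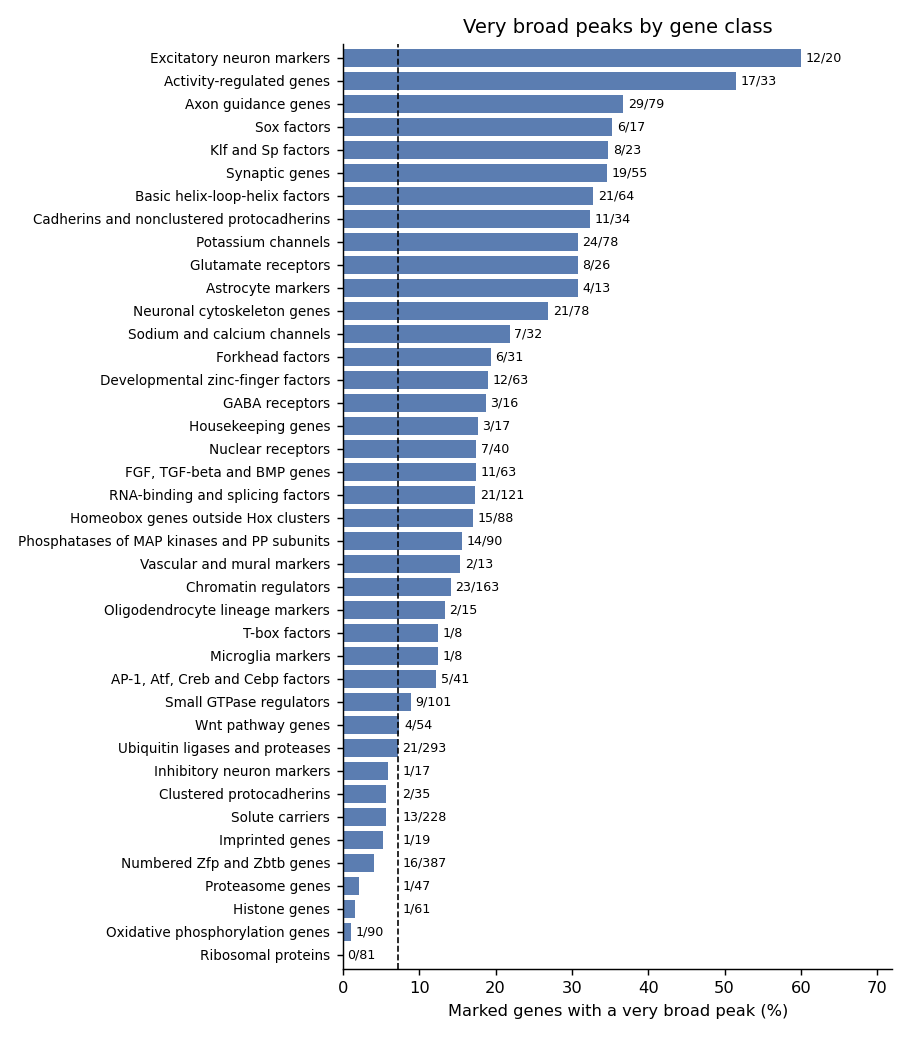
Share of marked genes with a very broad peak, for classes with at least 8 marked genes; the numbers give genes with such a peak over marked genes, and the dashed line is the 7.20% over all marked genes. Excitatory neuron markers (12 of 20) and activity-regulated genes (17 of 33) are at the top and ribosomal proteins (0 of 81) at the bottom.

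In 13 genes, more than 1 very broad peak met the windows of the gene's starts. Tcf4, a helix-loop-helix factor with many alternative first exons, had 3, of 8537, 8028 and 7486 bases. Myt1l, a neuronal zinc-finger repressor, had 2 (7159 and 4043 bases), as did Zeb2 (6488 and 4745). The genes under very broad peaks were long: the median length was 65825 bases, against 29237 for narrower promoter peaks and 51205 for peaks of 3000 to under 4000 bases. On the X chromosome 15 of 545 promoter peaks were very broad (2.75%), against 6.13% on the autosomes. This was not particular to the very broad class. The share of peaks that lay on the X fell with each step in width, from 5.19% under 1000 bases to 2.11% at 3000 to under 4000 and 1.62% in very broad peaks.

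The peaks spread into the gene. Over the 827 peaks with 1 coding gene, 776 (93.8%, 95% Wilson interval 92.0 to 95.3, which covers counting error only) reached further downstream than upstream of the coding start nearest the summit. The same held for 80.8% of 13087 narrower promoter peaks with 1 gene. The share climbed with width, from 58.7% under 1000 bases to 84.6% at 1000 to under 2000, 89.5% at 2000 to under 3000 and 92.2% at 3000 to under 4000, so the very broad peaks were near the class below them. Where the start lay inside the peak (809 peaks), the median reach was 1120 bases upstream and 3718 bases downstream. In 467 of them (57.7%) the downstream reach was more than 3 times the upstream reach. From the 1000 to under 2000 class to the very broad class, the median upstream reach grew from 518 to 1093 bases and the downstream reach from 1012 to 3730.

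Among the longest downstream reaches were 9563 bases at Pcdh9, 9366 at Mn1 and 8926 at Enc1, an actin-binding protein of cortical neurons. At Qk the annotated start lay 358 bases before the peak, whose far edge was 10330 bases downstream. Pcdh9 and Mn1 had only 1401 and 1349 bases upstream. The reach at Pcdh9 depended on the start taken. From its 3′-most start whose window met the peak, it had 6332 bases upstream and 4632 downstream. With the same choice Mn1 and Enc1 kept 9366 and 8926 bases downstream, so there the mark ran from the promoter far into the gene body.

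The opposite pattern was found at 51 peaks, 49 of them with the start inside the peak. Setd1b had 8015 bases upstream of the start nearest its summit and 3241 downstream, Zfp516 had 5314 and 996, and Arid2, a subunit of a SWI/SNF remodelling complex, had 5131 and 632. At Tnrc18 and at the neuronal factor Pou3f3 the peak ended before the coding start, and its far edge lay 6281 and 5933 bases upstream. In 29 of the 51 the balance turned downstream once the gene's 5′-most start whose window met the peak was taken. A start further 5′ can shift the balance in that direction only. With the 3′-most such start, 687 of the 827 peaks with 1 gene reached further downstream, against 776 with the start nearest the summit. Zfp516 shows how much the start matters: from its 5′-most start it had 1345 bases upstream and 4965 downstream. Setd1b kept 8015 upstream bases under either choice.

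**Figure D3:**
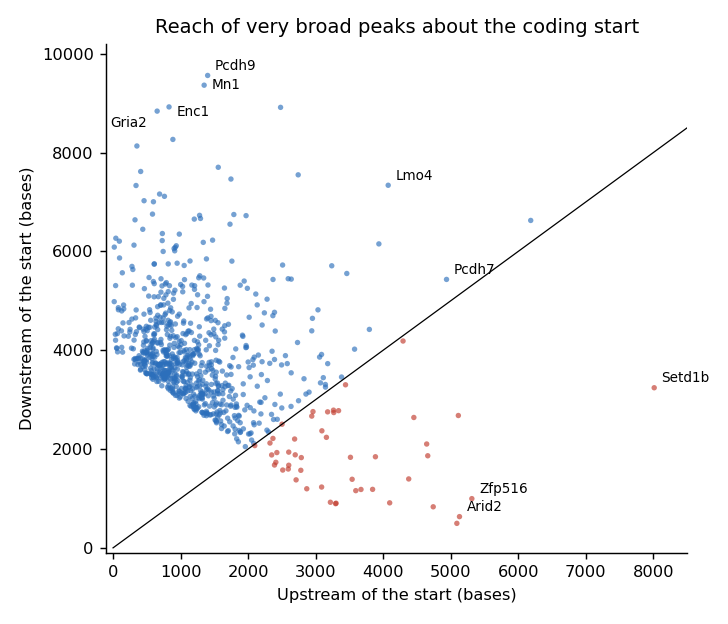
Bases upstream (x) and downstream (y) of the coding start nearest the summit for 809 very broad peaks with 1 coding gene and the start inside the peak; the line marks equal reach. The 760 blue points lie above it and the 49 red points, among them Setd1b, Zfp516 and Arid2, on or below it.

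The downstream part lay mostly in the first intron. Of the downstream bases, 15.5% were in the first exon, 62.4% in the first intron, 18.2% in later exons and introns and 3.90% past the end of the transcript. The first-intron share was higher at 3000 to under 4000 bases (70.1%) and at 1000 to under 2000 (67.4%), and lower under 1000 (51.3%). The far edge fell in the first intron in 517 of the 809 peaks (63.9%), beyond it but inside the transcript in 206 (25.5%), and in the first exon in 12 (1.48%). A far edge in the first intron was more frequent at 3000 to under 4000 bases (73.1%) and at 1000 to under 2000 (76.7%). In the very broad peaks the far edge lay past the transcript end in 74 (9.15%). The share was 3.41% for peaks of 3000 to under 4000 bases and 1.10% for those of 1000 to under 2000. A wider peak has more room to pass this end. The transcript here is the longest from the coding start nearest the summit, and it can be a short form of a long gene. At Pcdh9, a gene of 877270 bases, that transcript had 2 exons and lay inside the peak, whereas the whole gene did not. In 50 of the 926 peaks (5.40%) all annotated coding transcripts of the gene were inside the peak, against 0.905% of narrower promoter peaks. Among the widest of these were the peaks of the receptor signalling inhibitor Spry2 (8079 bases), the forkhead factor Foxc1 (7877), the beta-adrenergic receptor Adrb1 (7703) and the kinase Plk2 (7332). A long noncoding RNA started on the opposite strand under 22.4% of the very broad 1-gene peaks and 18.8% of the 3000 to under 4000 class, against 10.9% of all narrower ones.

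CpG islands, found here as stretches of at least 200 bases with GC content of at least 50% and an observed-to-expected CpG ratio of at least 0.6, covered a median of 36.1% of a very broad peak. Peaks of 3000 to under 4000 bases had 44.8% and all narrower promoter peaks 52.8%. In bases the median was higher, 1792 against 874, and 586 very broad peaks (63.3%) held more than 1 island, against 47.2% of peaks of 3000 to under 4000 bases and 23.3% of all narrower ones. This share rose with each step in width, and a wider peak has more room for islands. The median CpG ratio was 0.541 against 0.612. The added width was therefore mostly outside islands, with a median of 3051 bases not in an island per peak against 762.

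The island share fell off with distance much sooner than the peaks did. The peak share at the distances below is largely set by the choice of peaks at least 4000 bases wide. In the 100 bases from 2000 downstream of the start, the average share of bases in the peak was 96.0% and in an island 14.6%. At 3000 the shares were 79.9% and 8.17%, and in peaks of 1000 to under 2000 bases the island share at 3000 was 4.23%. The 2 edges also differed. In the last 500 bases inside the downstream edge the median CpG ratio was 0.217, near the 0.194 just outside it. The upstream edge had 0.455 inside and 0.235 outside. Peaks of 3000 to under 4000 bases were nearly the same, with 0.227 inside and 0.188 outside the downstream edge and 0.484 and 0.235 at the upstream edge. For peaks of 1000 to under 2000 bases the ratio inside the downstream edge was 0.375.

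**Figure D4:**
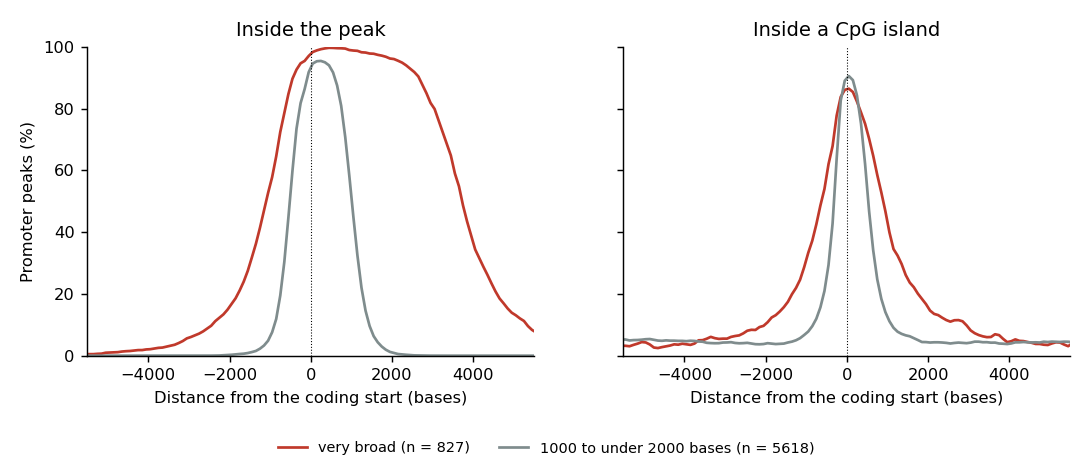
Share of bases inside the peak (left) and inside a CpG island (right), by distance from the coding start in bins of 100 bases (positive is downstream), for 827 very broad peaks and 5618 peaks of 1000 to under 2000 bases with 1 gene. At 2000 bases downstream 96.0% of the very broad peaks' bases were in the peak and 14.6% in an island.

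The CpG ratio of single peaks ranged from 0.167 to 0.934. Highest were Cdk13 (0.934) and Phip (0.924), followed by Arid2 (0.907), Sox11 (0.899) and Arid1b (0.872), which encode chromatin remodelling subunits and a neuronal transcription factor. Lowest after Arhgap32 were the somatostatin receptor gene Sstr3 (0.192), the nucleoporin gene Nup93 (0.193), R3hdm1 (0.195) and Synpo (0.199), an actin-associated protein of dendritic spines. In all, 29 very broad peaks held no island (3.13%), against 7.55% of narrower peaks and 2.04% of the 3000 to under 4000 class.

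From 2000 bases up, wider peaks were not higher. The deposited enrichment value for a peak, taken here as fold over control, had a median of 22.3 (quartiles 18.3 and 26.4) in very broad peaks. The median was 22.3 at 3000 to under 4000 bases, 22.5 at 2000 to under 3000 and 19.2 at 1000 to under 2000. Across the 926 peaks, Spearman's rho between width and enrichment was 0.004, a description over peaks of 1 list. Among the highest values were those at the survival gene Bcl2l1 (38.3), Ypel2 (36.2), Snph (36.1) and Hnrnph1 (35.2). The lowest were at Id1 (6.95), Sox2 (7.27), Islr2 (7.79), Foxc1 (7.83) and Neurod1 (8.15). Of these low, wide peaks, Id1, Sox2, Foxc1 and Neurod1 belong to transcription regulator genes. Low values were not typical of the 926, whose median lay at percentile 65.2 of all promoter peaks. Of the 926, 255 were below the median of all promoter peaks.

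All 926 peaks had the same coordinates and enrichment in the list called on the pooled reads of both pools, so their widths come from pooled reads. The single-pool lists give width from part of the same reads, which makes them a description and not an independent repeat. Every very broad peak met a peak in both pools. Its widest overlapping peak had a median width of 4447 bases for pool J and 4800 for pool I. At least 4000 bases were reached in both pools by 663 (71.6%, 95% Wilson interval 68.6 to 74.4), in pool J by 702 and in pool I by 860. Pool I alone passed for 197, pool J alone for 39, and neither for 27. The widest peaks were wide in each pool: all 30 of at least 8000 bases passed in both, as did 83.2% of the 585 of at least 4500 bases and 51.6% of the 341 below that.

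The peak of Lmo4 was 11355 bases wide in pool J, and pool I gave it 11497. In the same order, Setd1b had 11231 and 10938 bases and Pcdh7 10342 and 10364. These 3 genes were close in both pools. Mef2c had 7899 and 11791 bases and Tbr1 7441 and 11606, both far wider in pool I as single peaks. With pool peaks up to 1000 bases apart joined, Mef2c had 9743 and 14196 bases and Tbr1 11445 and 13407. The 2 pools were then closer at Tbr1, whereas Mef2c stayed far wider in pool I. Dusp6 (7279 and 7293) and Nfib (9002 and 9200) differed little, whereas Nfix had 6165 and 7419 against 9154 in the replicated list.

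The median ratio of pool I to pool J width was 1.061, with quartiles of 1.002 and 1.173, and the same ratio over narrower promoter peaks was 1.063. Pool I was the wider in 75.5% of very broad and 71.9% of narrower peaks. The 2 widths differed by more than 1.5 times in 82 (8.86%), against 8.75% of 13595 narrower promoter peaks met in both pools. Most of this came with breaks in a peak. Among the 674 peaks met by 1 peak in each pool, 7 differed that much.

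Breaks were more common in pool J. More than 1 pool J peak met 186 very broad peaks (20.1%), against 9.65% of peaks of 3000 to under 4000 bases, and more than 1 pool I peak met 91 (9.83%), against 7.39%. A wider peak offers more room for a break, and this was not corrected for. The 216 gaps in pool J had a median of 120 bases and 180 were under 300 bases. Those in pool I numbered 93 with a median of 106. Of the split peaks with 1 gene, 142 of 167 in pool J and 59 of 81 in pool I had the widest gap downstream of the start. Repeats masked in the reference made up 22.4% of the bases in the pool J gaps and 13.2% of the bases of the peaks that held them, and 25.8% against 12.8% in pool I. The part of repeats or read depth in the breaks was not tested. Taken as bases covered, the pools were closer: the median share of a very broad peak under pool J peaks was 97.1% and under pool I peaks 99.9%.

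The largest ratios were at Ddx24, an RNA helicase, where pool J had 1703 bases and pool I 5767. At Drd1, the D1 dopamine receptor, the widths were 1798 and 5605 bases. Both lay under 3 pool J peaks and 1 pool I peak. The second Myt1l peak had 4003 and 11354 bases with 1 peak in each pool, because 1 pool I peak spanned both very broad Myt1l peaks. The ciliary gene C2cd3 (1683 and 4472) and the Notch target Hes1 (2508 and 6137) completed the upper 5. At the other end were the receptor gene Gpr26 (4886 bases in pool J, 2572 in pool I), the actin-severing protein Cfl1 (4975 and 2661), the ubiquitin ligase subunit Fbxo11 (4259 and 2312), the mRNA decay factor Zfp36 (4559 and 2622) and the phosphatase subunit Ppp2r5a (4220 and 2495). All 5 were met by 1 pool J peak and 2 pool I peaks. Grik2 (3263 and 3612 bases) and Car2 (3538 and 3186) were the widest of the 27 that passed in neither pool, and each was broken into 2 peaks in both.

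**Figure D5:**
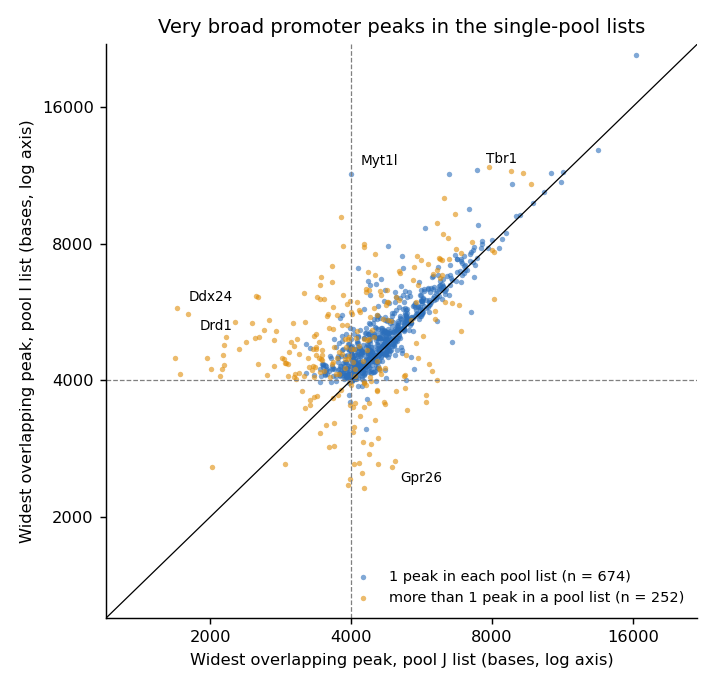
Width of the widest overlapping peak in the pool J list (x) and the pool I list (y) for 926 very broad peaks, on log axes; dashed lines mark 4000 bases and the solid line equal width. Most of the 674 blue points (1 peak in each pool) lie close to the line, and orange points (252, more than 1 peak in a pool) are scattered on both sides.

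Edges moved more inside the gene than before it. For the 601 1-gene peaks met by a single peak in each pool, the upstream edge differed between pools by a median of 71 bases and the downstream edge by 196. Peaks of 3000 to under 4000 bases were close to this, at 68 and 174, and those of 1000 to under 2000 bases had 52 and 88. The downstream edge differed by more than 500 bases in 125 of the 601 and the upstream edge in 17. Taking each pool's own list, 743 promoter peaks of pool J and 986 of pool I were at least 4000 bases wide, and 41 and 127 of these met none of the 926.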

How the data were processed

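H3K4me3 ChIP-seq of left cerebral cortex was deposited as 4 mm10 peak lists, per the labels: a list of each pool, J and I, a list of their pooled reads, and a replicated list. The labels gave each library its pool. For the aligner, caller, settings and read numbers, the entry is: not given in the sources used here. The enrichment of each peak is a deposited ratio, taken as fold over control. The deposited −log10 q served as a filter in 1 alternative. The deposited display score was not used.

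Starts, exons and transcripts were those of GENCODE M21 protein-coding transcripts, and sequence that of GRCm38 (mm10). Peaks were matched by at least 1 base. Extents were measured from the coding start nearest the summit. Pool width was that of the widest overlapping pool peak. Soft-masked letters of the reference were counted as repeats. Python 3.11.15, pandas 2.3.3, pysam 0.24.0 and samtools 1.23.1 were used, and the functions were tested on simulated peaks and sequence. Intervals cover counting error only.

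The peaks, the 46 gene classes and the alternatives were chosen with earlier results of these data known. Genes were named by rule, 1 per peak (coding start nearest the summit, except where a class holds another gene of the peak). The rule took the 10 widest peaks, 3 on each side of the threshold, the widest of classes with at least 3 genes, and the extremes of reach, pool ratio, enrichment and CpG ratio, and of peaks that covered a gene. Genes of smaller classes, genes with more than 1 peak, Grik2 and Car2 as examples under 4000 bases in both pools, Arid2 as an upstream example, and the windows with the most CG were chosen after their values were seen. Regions are not replicates, so no p-value was computed. Some genes that the rule takes, and the sequence of the widest peak with 1 gene, are not reported here.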

Additional observations from a re-analysis of the deposited data

How the results depend on the processing

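The values were recomputed with other thresholds, windows, starts, lists and island rules. Windows of 500 or 2500 bases left the number, the direction, the pool values and the island share close to those reported. So did the starts of all transcripts of protein-coding genes, and basic transcripts alone. A −log10 q of at least 10 could remove none of the 926 peaks, whose lowest value was 25.6, so that filter tests nothing here. The number of peaks was 2346 at a threshold of 3000 bases, 369 at 5000 and 1491 where peaks up to 1000 bases apart were merged. With the list of 1 pool alone it was 743 or 986. The share reaching further downstream was 91.9% at 5000 bases, 91.4% with merged peaks, 97.3% with the 5′-most start, 83.1% with the 3′-most start and 96.1% for genes with 1 start. With 1 pool alone it was 92.5% or 93.0%. The share at least 4000 bases wide in both pools was 28.4% for peaks of at least 3000 bases and 88.9% for those of at least 5000. The pool cutoff stayed at 4000 bases, so this shift with the threshold is largely set in advance. The same share was 82.7% by bases covered and 86.5% with merged pool peaks. The median pool ratio was 1.025 by bases covered. The island share was 41.1% at 3000 bases, 33.4% at 5000 and 34.3% with strict islands (500 bases, GC content 55%, ratio 0.65), and 37.6% or 35.9% with 1 pool alone. No paired analysis was possible because each pool gave 1 list. The unknown depth limits every width.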

Other observations

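A further 49 peaks of at least 4000 bases in the replicated list met no window of 1000 bases either side of a protein-coding transcript start. Their median width was 4829 bases. The nearest coding start was within 5000 bases for 11 of the 49, so not all were far from one. Of the 49, 36 overlapped the window of some other annotated start. The widest H3K4me3 peak of that list was among the 49: 26825 bases on chromosome 13 over Mir9-2 and its noncoding host C130071C03Rik, where pool J had 23485 bases and pool I 27204. Mir9-3 lay under a peak of 11480 bases (11429 and 11499 in the pools), Mir124a-2 under one of 7242 (7242 and 7791), Mir124a-1 under one of 7192 (7023 and 7203) and Mir125b-1 under one of 8474 (7069 and 8554). These microRNAs are abundant in brain. The noncoding RNA Malat1 had a peak of 8913 bases (8772 and 8929), and the imprinted noncoding RNA Peg13 one of 7113 (7074 and 7152). These genes were chosen after their values were seen.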
